A study of Mus musculus with 12 samples.

Results

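The immunoglobulin constant genes and the J chain gene were examined in B cells purified from Peyer's patches (PP), the lymphoid follicles of the small intestine, of sham controls and stroke mice. The 10 genes were taken by name from the deposited table of 36175 genes, namely Ighm, Ighd, Igha, Ighg1, Ighg2b, Ighg2c, Ighg3, Igkc, Iglc2 and Jchain, and all 10 were among the 12590 genes that reached a value of 1 in each mouse and were tested. Bulk RNA-seq was performed with 1 library per mouse on 6 sham controls and 6 stroke mice, all male C57BL/6JHsd mice aged 10 to 12 weeks, for which the labels name the strain and no engineered allele. Stroke was induced by occluding the middle cerebral artery for 1 h with a filament, which was then withdrawn to restore flow. In sham controls the middle cerebral artery was not occluded, since the filament entered the common carotid artery only and was not kept there, and mice of both groups received analgesia. PP were collected 18 h after surgery, and B cells were enriched with a kit that depletes other cells and then with CD45 beads, so the libraries hold the B cells that remained in PP at that time. In the labels, mice carry a number from 1 to 6 within their group. The comparison asks whether the RNA of the antibody chains differed between PP B cells of stroke mice and sham controls.

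An antibody consists of paired heavy and light chains, and the constant region of its heavy chain sets its class. Naive B cells make IgM and IgD from a single primary transcript by alternative RNA processing, and class switching then joins the same variable region to a downstream constant gene, which in PP is often that of IgA. The J chain links IgA into dimers and IgM into pentamers and is needed for their transport across the gut epithelium by the polymeric Ig receptor, and plasma cells raise the RNA of their chains and of Jchain far above the level of naive B cells.

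The heavy-chain genes lie in a row on the minus strand of chromosome 12 of GRCm38 (gene models of GENCODE M21). In the order of transcription, Ighm (ENSMUSG00000076617) lies at chr12:113418558-113422730 and Ighd (ENSMUSG00000104213) at chr12:113406604-113416324. The IgG genes follow, with Ighg3 (ENSMUSG00000076615) at chr12:113356224-113361232, Ighg1 (ENSMUSG00000076614) at chr12:113325240-113330523, Ighg2b (ENSMUSG00000076613) at chr12:113302965-113307933 and Ighg2c (ENSMUSG00000076612) at chr12:113285325-113288932. Igha (ENSMUSG00000095079) is the last, at chr12:113254830-113260236. The kappa constant gene Igkc (ENSMUSG00000076609) lies on the plus strand at chr6:70726435-70726966. The lambda constant gene Iglc2 (ENSMUSG00000076937) lies on the minus strand at chr16:19198396-19200351. Jchain (ENSMUSG00000067149) lies outside the immunoglobulin loci, on the minus strand at chr5:88519809-88527891.

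Reads were assigned to genes by the words of 31 bases that they share with transcripts, so the stretches that set similar constant genes apart decide how far their values are separate. The hinge exon is shown because it joins the antigen-binding and effector parts of an IgG heavy chain and is shown for each of the 4 IgG genes. It is the second exon of each gene, and the sequences below are read from GENCODE M21 on GRCm38, minus strand, 5′ to 3′. Capitals mark runs of at least 12 bases that occur in the hinge exon of another IgG gene.
Ighg3, chr12:113360529-113360576: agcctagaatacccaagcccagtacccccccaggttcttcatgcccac
Ighg1, chr12:113329844-113329882: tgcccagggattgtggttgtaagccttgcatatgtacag
Ighg2b, chr12:113307261-113307326: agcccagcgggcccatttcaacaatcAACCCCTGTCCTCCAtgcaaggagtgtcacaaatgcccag
Ighg2c, chr12:113288263-113288325: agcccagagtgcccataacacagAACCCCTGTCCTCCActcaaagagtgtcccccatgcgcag
A shared run was found in Ighg2b and Ighg2c and in neither Ighg3 nor Ighg1. Over whole transcripts, Ighg2c shared 15.0% of its 1295 words of 31 bases with other genes and Ighg2b shared 9.29% of 2647, and 186 of these words were common to both. For Ighg3 and Ighg1 the shares were 3.63% and 1.72%, so the values of Ighg2b and Ighg2c are the least separate among the IgG genes.

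The lambda genes Iglc2 and Iglc3 were closer still, and a window of 90 bases of the constant exon of each is shown, minus strand of chromosome 16 in the same build, with capitals for the bases of Iglc3 that differ from Iglc2.
Iglc2, chr16:19198659-19198748: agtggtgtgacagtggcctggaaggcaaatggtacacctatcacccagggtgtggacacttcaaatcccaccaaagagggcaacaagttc
Iglc3, chr16:19065488-19065577: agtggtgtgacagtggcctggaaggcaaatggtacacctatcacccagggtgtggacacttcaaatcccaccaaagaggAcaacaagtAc
The windows differed at 2 positions. Over whole transcripts, Iglc2 shared 19.6% of its 581 words with other genes, 106 of 114 shared words being those of Iglc3. By contrast, 0 words of Ighm, Igha and Igkc, 2 of Ighd and 7 of Jchain occurred in another gene. The values are given by gene, so the secreted and membrane forms of a heavy chain, which differ in their last exons, were not told apart.

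The deposited values are normalized per transcript length and are called the signal here. How many reads lie behind a value is unknown, and the values of a mouse summed to between 559570 in sham control 6 and 1404340 in sham control 1. The listed B cell markers, among them Ms4a1, Cd79a, Cd79b and Pax5, were present in every mouse, with a summed signal of 2460 to 3081 in sham controls and 1756 to 2827 in stroke mice. Some libraries stood apart. Sham control 6 had the lowest total, sham controls 1 and 2 had the highest signal of intestinal epithelial markers, and stroke mouse 6 had 30060 genes above 0, compared with 20626 to 23947 in the other mice.

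Igkc had the highest signal of the 10 genes, with a mean over all 12 mice of 7894 ± 3790 (SD), and was the gene with the seventh highest mean in the whole table. It was followed by Ighg2b at 2610 ± 1015, Ighm at 1508 ± 398, Igha at 1116 ± 573, Ighd at 506 ± 121, Jchain at 505 ± 256, Iglc2 at 368 ± 118, Ighg1 at 226 ± 98.7, Ighg3 at 220 ± 92.5 and Ighg2c at 109 ± 59.9. Within mice, Igkc lay above Ighg2b, Ighm above Igha, and Ighg3 above Ighg2c in 12 of 12, and Ighg2b above Ighm and Igha above Ighd in 11. Some neighbours could not be ordered. Ighd was above Jchain in 6 of 12 mice, and Ighg1 was above Ighg3 in 5 of 6 sham controls and in 2 of 6 stroke mice. Thus IgG2b RNA exceeded that of IgM and IgA in PP B cells of all mice but sham control 6.

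**Figure D1:**
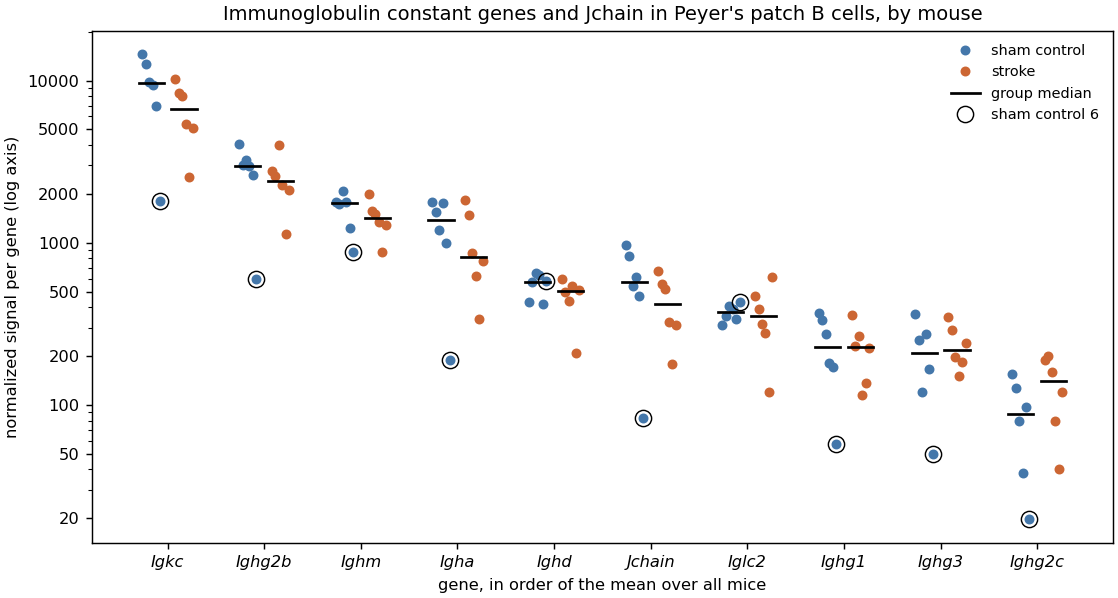
Normalized signal per gene on a log axis for the 10 genes, in the order of the mean over all mice, with 1 point per mouse (blue, 6 sham controls; orange, 6 stroke mice), bars at the group medians and sham control 6 circled. Both groups overlap for every gene, and sham control 6 is the lowest of all mice for 7 genes but not for Ighd and Iglc2.

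Igha, the heavy chain of IgA, was at 188 in the lowest, 1373 in the median and 1781 in the highest sham control, and at 341, 818 and 1837 in stroke mice. The stroke values were spread over the range of the sham controls, and 4 of 6 lay below the sham median. Igha had a log2 fold change of -0.25 ± 0.54 (SE, 95% interval -1.42 to 0.91), which did not pass the test (limma, adjusted p = 0.931). In bulk RNA a lower share of IgA-producing cells and less Igha RNA per cell cannot be told apart, and this holds for all values below. The log2 fold change of Igha was -0.74 when sham control 6 was left out (adjusted p = 0.324, limma), which did not pass the test either, and 0.10 without sham controls 1 and 2.

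Jchain was at 83.6, 575 and 969 in the lowest, median and highest sham control and at 179, 420 and 670 in stroke mice. In 5 of 6 stroke mice Jchain lay below the sham median, but the groups overlapped over most of their range. The log2 fold change was -0.27 ± 0.52 (SE, 95% interval -1.39 to 0.86; limma, adjusted p = 0.922). Without sham control 6 it was -0.76, with an unadjusted p of 0.033 and an adjusted p of 0.284 (limma), without stroke mouse 5 it was -0.043, and without sham controls 1 and 2 it was 0.20. The difference stayed negative when any 1 mouse was left out. Its sign changed in 1 of 24 alternatives, that without sham controls 1 and 2, which was added after seeing the data. The size of the difference in Jchain thus rested on which libraries were included.

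Ighm, the heavy chain of IgM, was at 879, 1766 and 2082 in the lowest, median and highest sham control and at 871, 1422 and 1999 in stroke mice. It was among the least variable of the 10 genes within a group, with a coefficient of variation of 27.9% in sham controls and 26.0% in stroke mice. The log2 fold change of -0.14 ± 0.23 (SE, 95% interval -0.64 to 0.36) did not pass the test (limma, adjusted p = 0.909). It was -0.30 without sham control 6 (limma, adjusted p = 0.434) and -0.0045 without stroke mouse 5, and it was -0.012 at equal totals and -0.045 with quantile normalization, so its size rested on single mice and on the scaling.

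Ighd, the heavy chain of IgD and a marker of naive B cells, was at 418, 575 and 646 in sham controls and at 208, 503 and 601 in stroke mice. Stroke mouse 5, at 208, lay far below the other stroke mice, which began at 437. Ighd had a log2 fold change of -0.28 ± 0.23 (SE, 95% interval -0.79 to 0.22; limma, adjusted p = 0.832), and it was -0.07 without stroke mouse 5. On the deposited scale sham control 6 did not stand out in Ighd, at 578, although it was the lowest sham control in Ighm. At equal totals without immunoglobulin genes sham control 6 was the highest sham control in Ighd, at 988. Another sham control was then the lowest in Ighm, at 1199.

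Among the IgG genes, Ighg2b was at 601, 2992 and 4075 in the lowest, median and highest sham control and at 1126, 2417 and 3977 in stroke mice. The log2 fold change of Ighg2b was -0.05 ± 0.42 (SE, 95% interval -0.95 to 0.85; limma, adjusted p = 0.982), and it turned to 0.08 when every mouse was rescaled to the same total and was -0.45 without sham control 6. Ighg1 was at 57.5, 227 and 371 in sham controls and at 115, 227 and 356 in stroke mice, with equal medians in both groups at this precision. Ighg1 differed by 0.06 ± 0.42 on the log2 scale (SE, 95% interval -0.84 to 0.95; limma, adjusted p = 0.979), and its sign changed when sham control 6 was left out (-0.30).

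Ighg3 was at 50.1, 209 and 364 in sham controls and at 152, 219 and 347 in stroke mice. This amounted to a log2 fold change of 0.40 ± 0.40 (SE, 95% interval -0.47 to 1.27; limma, adjusted p = 0.859), and the stroke mice covered a narrower range within that of the sham controls. Without sham control 6 the difference in Ighg3 was 0.048 (limma, adjusted p = 0.948), and without sham controls 1 and 2 it was 0.81. Ighg2c, the IgG2 form of C57BL/6 mice that takes the place of IgG2a, had the largest difference of the 10 genes in the fit of all 12 mice. It was at 19.7, 88.5 and 156 in sham controls and at 40.3, 140 and 201 in stroke mice. The signal of 3 stroke mice exceeded that of the highest sham control, and 4 of 6 lay above the sham median. The log2 fold change was 0.72 ± 0.51 (SE, 95% interval -0.38 to 1.82), an unadjusted p of 0.183 and an adjusted p of 0.815 (limma). It remained positive under every alternative tried, between 0.35 without sham control 6 and stroke mouse 6 and 1.22 without sham controls 1 and 2, where the unadjusted p was 0.038. At equal totals it was 0.85 with an unadjusted p of 0.040 and an adjusted p of 0.949 (limma). Without sham control 6 alone it was 0.36, smaller in size than the differences of Igkc, Jchain, Igha and Ighg2b in that fit.

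The light-chain gene Igkc was at 1801, 9593 and 14467 in the lowest, median and highest sham control and at 2530, 6679 and 10228 in stroke mice. As with Jchain, 5 of 6 stroke mice were below the sham median. For Igkc the log2 fold change was -0.36 ± 0.47 (SE, 95% interval -1.37 to 0.65; limma, adjusted p = 0.881). It was -0.78 without sham control 6, with an unadjusted p of 0.031 and an adjusted p of 0.283 (limma), -0.11 without stroke mouse 5 and 0.04 without sham controls 1 and 2. Iglc2 was at 310, 373 and 432 in sham controls and at 120, 354 and 611 in stroke mice. Its coefficient of variation was 12.2% in sham controls and 46.3% in stroke mice on the values as deposited, but 47.6% and 46.5% at equal totals without immunoglobulin genes, so the narrow range in sham controls held on the deposited scale only. For Iglc2 the log2 fold change was -0.18 ± 0.30 (SE, 95% interval -0.84 to 0.47; limma, adjusted p = 0.909), or 0.10 without stroke mouse 5.

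**Figure D2:**
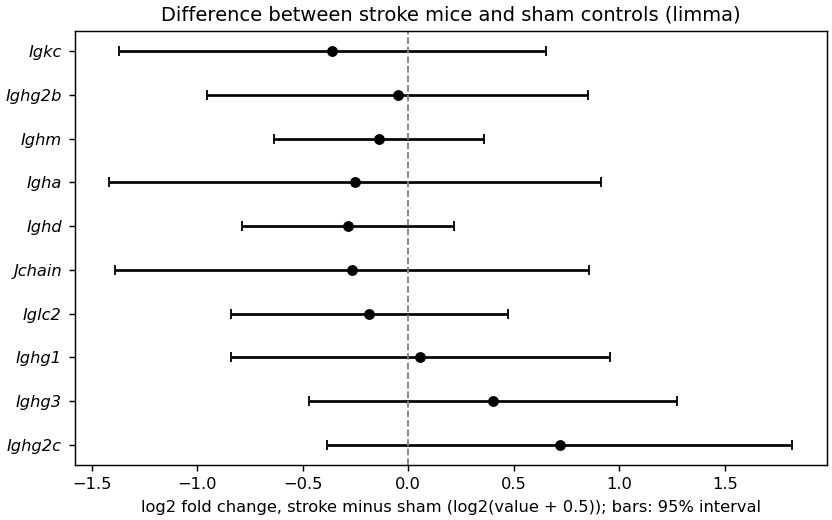
Log2 fold change of each gene between stroke mice and sham controls from limma on log2(value + 0.5), with horizontal bars for the 95% interval and a dashed line at 0. Every interval includes 0, and Ighg2c (0.72) and Ighg3 (0.40) are farthest to the right.

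At an unadjusted p under 0.05, 0 of the 10 genes were higher in stroke mice and 0 were lower on the values as deposited (limma). Among all 12590 genes on that scale, 4.42% were higher and 1.69% were lower at that threshold, and 0% had an adjusted p under 0.05 in either direction. At equal totals Ighg2c was higher, as given above, beside 341 of 12337 genes tested there, with a median log2 fold change of all genes of 0.12. For 0 of the 10 genes did the groups not overlap, beside 0.349% of all genes with every stroke mouse above every sham control and 0.0874% with every stroke mouse below. The log2 fold change was positive for 3 genes (Ighg1, Ighg2c and Ighg3) and negative for 7, with a median of -0.16, whereas it was positive for 51.4% of all genes with a median of 0.0069. The 10 genes varied more between mice than most genes did, since the standard error of each exceeded the median of all genes, 0.175, and their own median was 0.418.

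The share of each heavy-chain gene in the summed heavy-chain signal of a mouse does not depend on how that mouse was scaled. Ighg2b took 25.3% to 46.0% of the heavy-chain signal in sham controls, with a mean of 39.6 ± 7.59% (SD, n = 6), and 34.1% to 53.7% in stroke mice, with a mean of 41.4 ± 6.86% (SD, n = 6). Ighm took 25.4 ± 6.22% in sham controls and 24.8 ± 3.23% in stroke mice (SD, n = 6 each). Igha took 17.4 ± 5.29% and 15.8 ± 5.11%, and Ighd took 10.1 ± 7.09% and 8.01 ± 1.77%. The smaller IgG genes took 3.31 ± 0.86% and 3.76 ± 0.90% for Ighg1, 2.92 ± 0.93% and 4.18 ± 1.30% for Ighg3, and 1.25 ± 0.53% and 2.11 ± 0.56% for Ighg2c. The mean shares of Ighg2c and Ighg3 were thus higher in stroke mice, with overlapping ranges.

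Sham control 6 had a composition of its own. In this mouse Ighd took 24.4% of the heavy-chain signal, compared with 4.83% to 8.47% in the other sham controls, and Igha took 7.92%, compared with 15.7% to 23.1%. The class-switched genes together, the 4 IgG genes and Igha, took 38.6% in sham control 6 and 62.9% to 75.2% in the other 11 mice. The lambda genes Iglc1, Iglc2 and Iglc3 took 38.9% of the light-chain signal in sham control 6, 23.4% in stroke mouse 6 and 10.3% to 14.9% in the other mice. All 10 genes together made up 0.708% to 2.02% of the total signal of a mouse, and sham control 6 (0.838%) and stroke mouse 5 (0.708%) had the lowest shares.

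**Figure D3:**
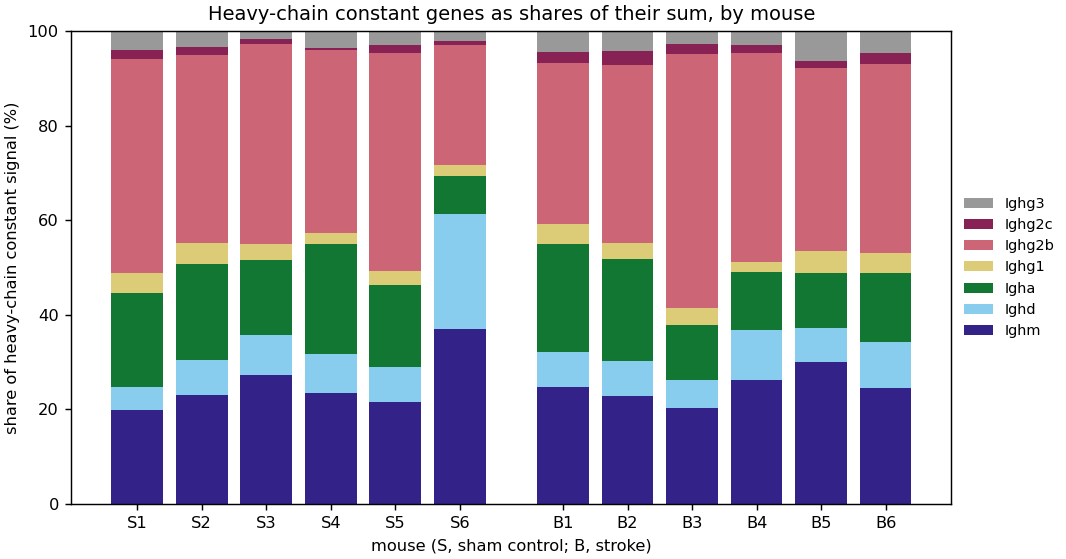
Stacked bars show each heavy-chain constant gene as a percent of the summed heavy-chain signal of a mouse, from 0 to 100%, for sham controls (S1 to S6) and stroke mice (B1 to B6). Ighg2b is the largest share in 11 mice, and S6 has the largest shares of Ighm and Ighd and the smallest of Igha.

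Ratios of genes within a mouse were compared next, since they too are free of scaling. The log2 ratio of Ighd to Ighm, which are made from the same primary transcript, ranged from -2.04 to -0.61 in sham controls with a median of -1.58 and from -2.06 to -1.30 in stroke mice with a median of -1.70. The difference of the group means was -0.15 ± 0.23 (SE) and did not pass the test (p = 0.597, exact permutation test, two-sided). The log2 ratio of Igha to Ighm ranged from -2.23 to -0.01 in sham controls and from -1.35 to -0.08 in stroke mice, and differed by -0.11 ± 0.41 (SE; p = 0.810 by the same exact permutation test).

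The ratio of Jchain to Igha had the smallest SD of the 4 ratios in sham controls, 0.24 on the log2 scale, whereas in stroke mice its SD of 0.30 was near the 0.29 of Ighd to Ighm. It stayed between -1.53 and -0.88 in sham controls and between -1.46 and -0.73 in stroke mice, and differed by -0.014 ± 0.157 (SE) between the groups (p = 0.935, exact permutation test). The log2 ratio of Igkc to Iglc2 was 4.38 to 5.55 in sham controls 1 to 5 and 2.06 in sham control 6, and it was 4.29 to 4.65 in stroke mice 1 to 5 and 3.07 in stroke mouse 6. The difference of -0.18 ± 0.55 (SE) between the group means did not pass the test (p = 0.742, exact permutation test). Over the 4 ratios the Benjamini-Hochberg adjusted p was 0.935 for each, and the smallest p that 6 mice against 6 allow is 0.0022 (exact permutation test). The log2 ratio of Ighg2c to Ighg2b, chosen after the values were seen and therefore not tested, was -6.27 to -4.58 in sham controls and -4.81 to -3.68 in stroke mice, 0.77 higher on average, with 3 of 6 stroke mice above all sham controls.

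**Figure D4:**
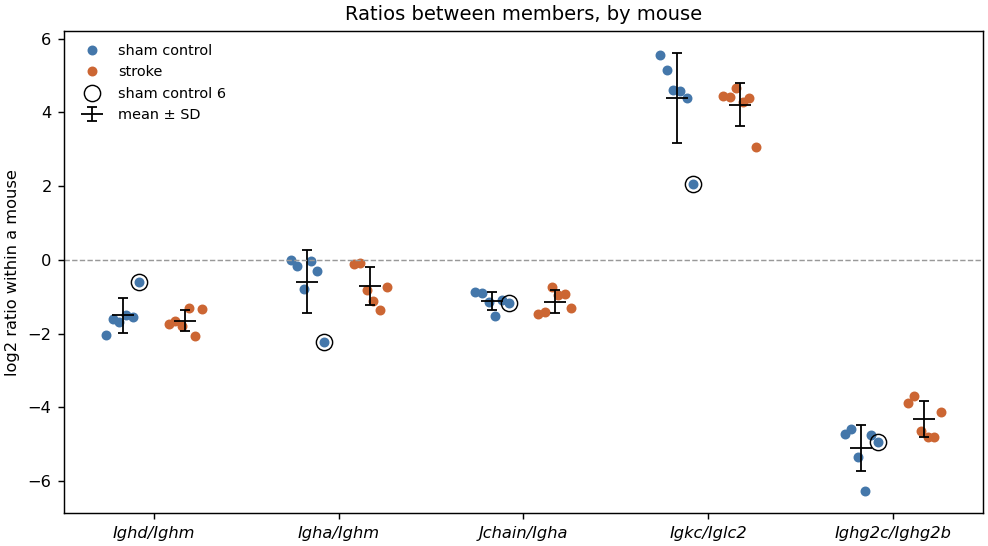
Log2 ratio of gene pairs within a mouse (blue, sham controls; orange, stroke mice; sham control 6 circled), with the mean ± SD of each group of 6. The groups overlap for every ratio, and sham control 6 lies apart from the other sham controls in Ighd/Ighm, Igha/Ighm and Igkc/Iglc2 but not in Jchain/Igha.

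Across the 12 mice Jchain moved with Igkc and Igha, and Ighd moved with Iglc2 and Ighm. Values were rescaled to the same total without immunoglobulin genes, because mice share a scale that moves all their genes together, and 45 pairs were compared with 100000 permutations of the mice. Jchain followed Igkc with a Pearson r of 0.98 and a Spearman rho of 0.91 over 12 mice, with a permutation p of 2.0e-05 and 0.00015, or 0.00045 and 0.0043 adjusted over the 45 pairs. The relation held within sham controls (r = 0.99), within stroke mice (r = 0.99) and without the 2 mice farthest from the median of Igkc (r = 0.96). Jchain followed Igha with r = 0.95 and rho = 0.90 (permutation p = 1e-05 and 0.00019, adjusted p = 0.00045 and 0.0043), and r was 0.82 without the 2 mice farthest from the median of Igha. Igha followed Igkc with r = 0.94 and rho = 0.85 (permutation p = 4.0e-05 and 0.00096, adjusted p = 0.00060 and 0.0144), and r was 0.81 without the 2 mice farthest from the median of Igha. Igha, Igkc and Jchain encode chains of which secreted IgA can be built.

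Ighd and Iglc2 moved together, with r = 0.89 and rho = 0.78 (permutation p = 0.00024 and 0.0046, adjusted p = 0.0027 and 0.0414). Their r was 0.97 within sham controls, 0.85 within stroke mice and 0.75 without the 2 mice farthest from the median of Ighd. On the values as deposited it was 0.84, and 0.34 without sham control 5 and stroke mouse 5, the 2 farthest on that scale. Ighd and Ighm gave r = 0.75 and rho = 0.83 (permutation p = 0.0052 and 0.0016, adjusted p = 0.0233 and 0.0184), with r = 0.67 within sham controls, 0.88 within stroke mice and 0.62 without the 2 mice farthest from the median of Ighm. On the values as deposited r of Ighd and Ighm was 0.60, and its adjusted p, 0.0564, no longer passed (permutation). No relation was detected between Ighd and Jchain, at r = -0.15 and rho = -0.08 (permutation p = 0.630 and 0.817, adjusted p = 0.832 and 0.855). Within sham controls their r was -0.69 and within stroke mice 0.69, and this difference was not tested. Of the 45 pairs, 5 had an adjusted p under 0.05 for both r and rho, and these are the pairs named apart from Ighd with Jchain. On the values as deposited 22 pairs passed, among them 4 of these 5 and also Ighm with Igkc (r = 0.92), Igha (r = 0.91) and Jchain (r = 0.88). On the rescaled values r of Ighm with Igkc, Igha and Jchain was 0.17, 0.22 and 0.03 within sham controls and 0.95, 0.94 and 0.93 within stroke mice, and this difference was not tested. Iglc2 also shares words of sequence with Iglc3, and its part in the relation with Ighd was not tested.

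**Figure D5:**
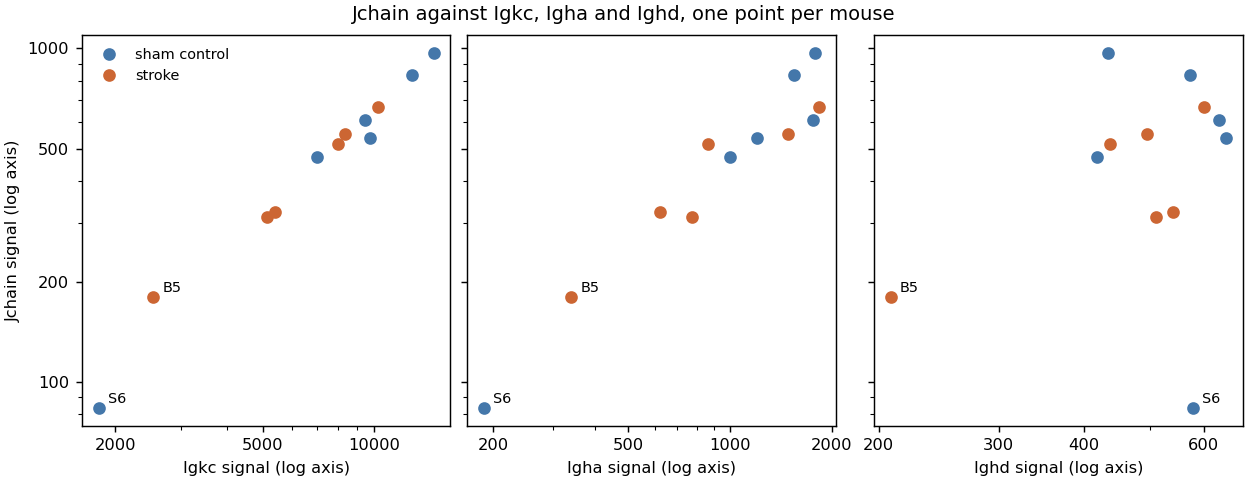
Signal of Jchain against that of Igkc, Igha and Ighd in each mouse on log axes, values as deposited (blue, 6 sham controls; orange, 6 stroke mice). Jchain rises with Igkc and Igha across mice of both groups, from sham control 6 (S6) and stroke mouse 5 (B5) upward, whereas S6 has the lowest Jchain value and the fourth highest Ighd value.

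Genes outside the immunoglobulin loci with the most similar pattern were listed by Pearson r over the 12 mice on the rescaled values, as a description. For Igha they were Jchain (0.95), Chchd10 (0.93), Chp1 (0.92), Rnasek (0.92) and Gstp1 (0.91). For Jchain they were Chchd10 (0.96), Rplp1 (0.95), Gstp1 (0.95) and Ftl1 (0.95). None of these except Jchain encodes an antibody chain, and Rplp1 encodes a ribosomal protein. The genes most like Ighd were Ifi209 (0.98), Map3k1 (0.97), Gimap4 (0.97), Gimap7 (0.96) and Pirb (0.96), of which the Gimap genes encode GTPases of lymphocytes.

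Of 16 listed plasma cell genes 15 were tested, and 0 were higher and 0 lower by the unadjusted p (limma), beside 4.42% higher and 1.69% lower of all genes, with a median log2 fold change of -0.11. Xbp1, the regulator of the secretory program, was at 64.0, 98.2 and 129 in the lowest, median and highest sham control and at 37.5, 81.3 and 107 in stroke mice. For Xbp1 the log2 fold change was -0.41 ± 0.25 (SE; limma, adjusted p = 0.793). Prdm1, which drives plasma cell differentiation, had a log2 fold change of 0.20, Irf4, which induces it, of -0.26, and Sdc1, which encodes the plasma cell marker CD138, of -0.44, and none passed the test. Tnfrsf17, the receptor for survival signals of plasma cells, was at or below 1.83 in every mouse and was not tested. The summed signal of the list was 651 to 1223 in sham controls and 707 to 1114 in stroke mice. On rescaled values it had r = -0.04 and rho = -0.01 with Jchain over 12 mice (permutation, adjusted p over 110 pairs of a list and a gene, 0.942 and 0.991), with r = -0.61 within sham controls and 0.88 within stroke mice, a difference that was not tested. On the values as deposited r was 0.94 and rho 0.85 (permutation, adjusted p = 0.00037 and 0.0129). On rescaled values the list followed Iglc2, with r = 0.87 and rho = 0.87 (permutation, adjusted p = 0.0066 and 0.0137), whereas r with Ighd was 0.81 and rho 0.65 (permutation, adjusted p = 0.0260 and 0.156). On the values as deposited the relation with Iglc2 was not detected, at r = 0.34 and rho = 0.03 (permutation, adjusted p = 0.351 and 0.946).

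Genes of class switching and IgA induction likewise gave 0 higher and 0 lower of 15 tested, beside the same shares of all genes, with a median of -0.0043. Ung and Msh6, which take part in the processing of DNA lesions during switching, had log2 fold changes of 0.18 and 0.06, and neither passed the test. Among 8 genes of heavy-chain RNA processing 1 was higher at an unadjusted p under 0.05, which 4.42% of all genes were, namely Zfp318, which is needed to make IgD from the shared transcript. Zfp318 was at 157, 185 and 224 in the lowest, median and highest sham control and at 183, 233 and 273 in stroke mice, a difference of 0.31 ± 0.14 (SE) on the log2 scale with an unadjusted p of 0.040 and an adjusted p of 0.791 (limma). Ighd itself was not higher in stroke mice, as given above.

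Of 9 genes listed as immunoglobulin receptors, a list that also holds the Fc receptor-like genes Fcrl1, Fcrl5 and Fcrla, 3 were lower and 0 higher at an unadjusted p under 0.05, beside 1.69% lower and 4.42% higher of all genes, whereas 0 passed after adjustment (limma). Their median log2 fold change was -0.43. Fcamr, a receptor for IgA and IgM, was at 5.07, 8.76 and 11.4 in sham controls and at 3.84, 4.28 and 8.21 in stroke mice, which gave a log2 fold change of -0.67 ± 0.22 (SE; unadjusted p = 0.0084, adjusted p = 0.716, limma). Fcer2a, the IgE receptor CD23 of mature B cells, was at 199, 283 and 318 in sham controls and 48.6, 218 and 234 in stroke mice, which gave -0.72 ± 0.33 (SE; unadjusted p = 0.0498, adjusted p = 0.791, limma). Fcgrt, the neonatal Fc receptor that recycles IgG, was at 19.9, 25.4 and 32.7 and at 11.2, 19.8 and 22.8, which gave -0.46 ± 0.18 (SE; unadjusted p = 0.021, adjusted p = 0.772, limma). Stroke mouse 5 was the lowest stroke mouse in Fcer2a and Fcgrt. The other chain genes Iglc1, Iglc3 and Iglc4 did not pass the test, with log2 fold changes of -0.26, -0.40 and -0.02, and Ighe, the heavy chain of IgE, was at or below 2.53 in every mouse and was not tested.

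Epithelial RNA varied beside the 10 genes. The 12 epithelial markers summed to 2558 and 3081 in sham controls 1 and 2, to 332 to 1142 in sham controls 3 to 5 and to 40.4 in sham control 6, and to 35.2 to 1317 in stroke mice, and 0 were at 0 in every mouse. Of the 6 that were tested, 0 were higher and 0 were lower by the unadjusted p (limma), beside 4.42% and 1.69% of all genes, with a median log2 fold change of -1.65. On rescaled values the sum had r = 0.69 and rho = 0.63 with Igha (permutation p = 0.0134 and 0.0319, adjusted p = 0.0944 and 0.167) and r = 0.66 and rho = 0.69 with Jchain (permutation p = 0.0146 and 0.0166, adjusted p = 0.0944 and 0.130), and on the values as deposited r was 0.79 and 0.76 (permutation, adjusted p = 0.0124 and 0.0129). Without the 2 mice farthest from the median of the sum, r on rescaled values was 0.76 with Igha and 0.86 with Jchain. Pigr, the polymeric Ig receptor of the epithelium, was at 2.58, 68.0 and 174 in sham controls and at 1.87, 7.62 and 93.2 in stroke mice, a difference of -2.17 ± 1.13 on the log2 scale (SE; limma, adjusted p = 0.791). The part of epithelial RNA in the values of Igha and Jchain was not tested.

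Of the B cell markers, Cr2, which encodes the complement receptor CD21, was the one gene of 8 lower at an unadjusted p under 0.05, beside 1.69% of all genes (-0.83 ± 0.30, SE; unadjusted p = 0.016, adjusted p = 0.748, limma), and their summed signal had r = 0.92 with Ighd on rescaled values (rho = 0.92; permutation p = 4.0e-05 and 7.0e-05, adjusted p = 0.0044 and 0.0077; r = 0.88 without the 2 mice farthest from the median). Other lists followed Ighd too on rescaled values, so the relation was not particular to the B cell markers. The sum of the immunoglobulin receptors had r = 0.89 and rho = 0.87 with Ighd (permutation, adjusted p = 0.0070 and 0.0137), and that of the class switching genes r = 0.82 and rho = 0.90 (permutation, adjusted p = 0.0260 and 0.0077). The sum of the endothelial markers given below had r = 0.73 and rho = 0.74 with Ighd and did not pass (permutation, adjusted p = 0.0771 and 0.0854). Within sham controls its r with Ighd was 0.95. As deposited, r with Ighd was 0.91 for the B cell markers, 0.71 for the receptors and 0.73 for the class switching genes (permutation, adjusted p = 0.0124, 0.0388 and 0.0411), but rho was 0.68, 0.50 and 0.45 and passed for none of them (permutation, adjusted p = 0.0771, 0.200 and 0.241), and without the 2 farthest mice r was 0.53, 0.33 and 0.10. T cell markers summed to 93.6 to 188 in sham controls and 83.9 to 212 in stroke mice, with 0 of 10 tested genes higher or lower. Macrophage and dendritic cell markers summed to 61.2 to 391 and 70.0 to 225, and 1 of 9, Flt3, was higher, beside 4.42% of all genes (0.50 ± 0.14, SE; unadjusted p = 0.0037, adjusted p = 0.716, limma). Neutrophil markers summed to at most 12.7 in any mouse, with 0 of 1 tested gene higher or lower. Endothelial markers summed to 83.8 to 110, of which Pecam1, which leukocytes also express, made up 77.1 to 105, and 4 of the 6 were below 5 in every mouse, with 0 of 2 tested genes higher or lower.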

How the data were processed

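The members and the gene lists were chosen with earlier results of these data known. RNA-seq of PP B cells was available for 6 sham controls and 6 stroke mice, with groups and numbers taken from the labels. Per the methods and the processing notes, the authors trimmed reads with Trimmomatic 0.39, quantified transcripts with kallisto 0.48.0 on GRCm38 (Ensembl release 102) and tested genes with sleuth 0.30.0 in R 4.1.2. What the authors deposited is a signal for each gene, labelled as normalized TPM. Its sums differ between mice, so it was handled as a signal of unknown scaling, with the test planned for TPM. Read depth is not given in the sources used here, so no counting interval can be made. Nothing in the labels says whether library preparation or sequencing was done in batches.

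Values were transformed as log2(value + 0.5). The test was limma 3.58.1 (R 4.3.3) on 12590 genes that reached 1 in each mouse, with Benjamini-Hochberg adjustment over all of them. A fold change on this scale understates that of low genes. The authors' sleuth test could not be repeated from values by gene. For ratios, all 924 ways to assign 6 of the 12 mice gave an exact permutation test, two-sided (scipy 1.17.1), and correlations used 100000 permutations, of which 1e-05 is the smallest p they can give. The scripts were tested on simulated data. Genes named are the 10 members, in each list those with an unadjusted p under 0.05 or otherwise up to 4 in the order of the list, and the 5 genes most like Igha, Jchain and Ighd. Other genes were named after their values were seen (Pigr, Tnfrsf17). A few genes that it would name are left out of the text. Positions and sequences come from GENCODE M21, which holds 35948 of the 36175 gene identifiers. Alternatives were pseudocounts of 0.1 and 1, filters on low values, 4 scalings, a replicate block, sample quality weights and leaving out each mouse in turn. Leaving out sham controls 1 and 2 together, or sham control 6 and stroke mouse 6 together, was added after seeing the data. So were the correlations on the values as deposited and the coefficients of variation and ranges at equal totals.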

Additional observations from a re-analysis of the deposited data

Results flagged for a closer look

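Within each group of 6 mice, values that lay far from the nearest other mouse relative to the range of the group were looked for in 28 combinations of a gene or ratio and a group, of which chance marks about 1 in 20. Sham control 6 was marked as the lowest sham control for Igha (188), Ighg2b (601), Igkc (1801) and Jchain (83.6), on the log2 scale of the signal. The same mouse was marked for the log2 ratios of Ighd to Ighm (-0.61, the highest sham control), of Igha to Ighm (-2.23, the lowest) and of Igkc to Iglc2 (2.06, the lowest). On the values as deposited it was the lowest sham control for 8 of the 10 genes, including the unswitched Ighm (879), and not for Ighd or Iglc2. Its total signal was also the lowest, and Ighm took a larger share of its heavy-chain signal (37.0%) than in any other mouse. At equal totals without immunoglobulin genes another sham control was the lowest in Ighm (1199). Sham control 6 also had the lowest epithelial marker sum of the sham controls. Stroke mouse 6 was marked for the log2 ratio of Igkc to Iglc2 (3.07, the lowest stroke mouse), and it had the highest Iglc2 signal of all mice. Stroke mouse 5 was marked for Ighd (208, the lowest of all mice) and was the lowest stroke mouse for 8 of the 10 genes.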

How the results depend on the processing

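Over 240 alternative values of the 10 genes, 0 had an adjusted p under 0.05 (smallest 0.283, limma), 5 had an unadjusted p under 0.05, and 19 changed sign. In log2 fold changes, leaving out sham controls 1 and 2 (added after seeing the data) turned Igha to 0.10, Ighg2b to 0.23, Igkc to 0.044 and Jchain to 0.20, and leaving out sham control 6 and stroke mouse 6 turned Ighg1 to -0.32. Quality weights turned Ighg1 to -0.24, and Ighg2b became 0.077 at equal totals, 0.072 at equal totals without immunoglobulin genes and 0.075 with quantile normalization. Leaving out 1 mouse gave -0.74 to 0.013 for Igha, -0.30 to 0.24 for Ighg1, -0.45 to 0.16 for Ighg2b and -0.37 to 0.10 for Iglc2. It gave ratio differences of -0.25 to 0.034 for Ighd to Ighm, -0.44 to 0.017 for Igha to Ighm, -0.096 to 0.051 for Jchain to Igha and -0.64 to 0.057 for Igkc to Iglc2. As deposited, r was 0.28 for Ighd with Jchain and 0.94 for the plasma cell list with Jchain.

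Of all genes, 557 were higher and 213 lower (72.3% of calls higher). The counts were 1418 and 350 without a filter, 341 and 72 at equal totals (82.6% higher, median of all genes shifted to 0.12), 339 and 74 without immunoglobulin genes in the total, 327 lower with quantile normalization (53.6% higher) and 866 and 703 with quality weights (55.2% higher). Median-of-ratios scaling gave 56.0% higher. Without sham controls 1 and 2, 141 were lower, and without sham control 6 and stroke mouse 6, 808. Leaving out 1 mouse gave 395 to 936 higher and 146 to 1162 lower, the highest counts without sham control 6. An adjusted p under 0.05 was reached by 1 gene with a filter on the mean (Gm9406) and by 0 or 1 when 1 mouse was left out (Ston1, without sham control 1). The causes were not tested.

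With the replicate number as a replicate block, 770 genes were higher and 404 lower, and no call of a member or ratio changed (smallest adjusted p of a member 0.608, Ighg2c). Same-numbered mice correlated at 0.0134 to 0.494, 4 of 6 pairs over 0.1, with a mean of 0.218 against -0.041 for other pairs, but for 0 numbers did the mice correlate best with each other, and not every pair was over 0.1, so the number was not taken as a pairing.

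Without read counts, neither depth nor counting error of low genes is known. The IgG and lambda genes share sequence, and secreted and membrane forms were not separated.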
